A study of Mus musculus with 8 samples.

Results

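Collagen chains and lysyl oxidases were taken as the protein-coding genes of the deposited table whose symbol is that of a collagen chain (Col, a type number, a and a chain number) or of Lox or Loxl1 to Loxl4. This gave 48 genes, 43 collagen chains and 5 lysyl oxidases, of 21649 rows in the table, 16330 of them protein-coding. Expression was measured by RNA sequencing of fluorescence-sorted mouse cells. Their label is non-vascular smooth muscle, and they came from lung (2 libraries), intestine (3 libraries) and bladder (3 libraries). In all 3 tissues the mice had the genotype Cspg4-Dre/Acta2-CreERT/R26-GFP: a Dre recombinase driven by Cspg4, a gene of mural cells such as pericytes, a tamoxifen-activated Cre driven by Acta2, the smooth muscle actin gene, and a GFP reporter in Rosa26. All groups also received tamoxifen, dissolved in corn oil at 20 mg/mL and injected into the peritoneum over 3 days at 0.75 mg per 10 g body weight. The tissues were the only labelled difference, and no untreated or other genotype group was analysed here. The labels give no age or sex, and do not say whether each library is a mouse of its own. The p-values therefore cover only how the libraries of a tissue vary, which may be technical.

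Collagens are made of 3 chains wound into a triple helix. In the cell, enzymes hydroxylate and glycosylate the chains and chaperones fold them. After secretion, proteases trim the ends, and fibrillar collagens then assemble into the fibres that bear load in the wall of hollow organs. Network-forming type IV collagen lies in the basement membrane around each smooth muscle cell, and the fibril-associated collagens, called FACIT, sit on the surface of fibres. Lysyl oxidases act last: these copper enzymes oxidise lysines of collagen and elastin, which leads to the cross-links that make fibres stiff and insoluble.

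The values are normalised read counts, which the authors deposited as whole numbers. Depth reconstructed from the spacing of these values was 12.66 to 13.62 M reads in lung, 12.02 to 13.18 M in intestine and 9.73 to 10.95 M in bladder libraries, and a count of 0 allows up to 3 reads, which is 2.47 to 3.80 in normalised value, by counting error alone. The 10 smooth muscle markers summed to 37111 to 40415 in lung, 35793 to 38896 in intestine and 24405 to 29222 in bladder libraries, with none at 0. In each of intestine and lung 6 of 10 were higher than bladder, against 28.7% and 19.2% of all tested genes, and 2 and 0 were lower, against 23.3% and 21.8%. Acta2, Myh11, Cnn1, Des, Actg2, Smtn and Cald1 had at least 1 reconstructed read per nucleotide of transcript. The limit given below for such dense genes applies to them and to the sums. Acta2 was at 2630 to 2719 in lung, 2454 to 2876 in intestine and 2323 to 2933 in bladder. The mural marker Cspg4 was at 4045 to 4757 in lung, 4220 to 4617 in intestine and 387 to 433 in bladder. The fibroblast list was also well expressed: its 12 genes summed to 23821 to 27027 in lung, 36738 to 39727 in intestine and 56622 to 63924 in bladder libraries, with none at 0. Because these are bulk samples, fewer cells of a type and less RNA per cell cannot be told apart.

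The promoter sequences of 4 collagen chains are shown because they stand for the different tissue patterns described below and had a window in RefSeq's table. Col6a4 and Col11a2 were highest in intestine, Col10a1 in lung and Col11a1 in bladder. Each sequence holds the 250 bases before the annotated start of the gene, 5′ to 3′ on the gene's strand, in RefSeq coordinates of build GRCm38.p6, and capitals mark matches on either strand to TATAAA, to CCAAT, to GGGCGG or to the CArG box:
Col6a4, chr9:106096692-106096941, minus strand: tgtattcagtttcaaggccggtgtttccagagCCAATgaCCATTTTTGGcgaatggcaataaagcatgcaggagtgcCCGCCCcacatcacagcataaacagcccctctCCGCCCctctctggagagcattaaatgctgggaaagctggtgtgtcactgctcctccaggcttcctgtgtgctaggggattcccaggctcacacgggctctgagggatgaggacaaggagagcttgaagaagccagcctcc
Col11a2, chr17:34038888-34039137, plus strand: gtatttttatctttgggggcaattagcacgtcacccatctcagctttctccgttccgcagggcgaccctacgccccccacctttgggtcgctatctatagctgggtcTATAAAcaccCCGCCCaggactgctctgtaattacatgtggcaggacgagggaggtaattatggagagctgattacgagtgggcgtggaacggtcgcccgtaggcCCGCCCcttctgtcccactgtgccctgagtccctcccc
Col10a1, chr10:34389731-34389980, plus strand: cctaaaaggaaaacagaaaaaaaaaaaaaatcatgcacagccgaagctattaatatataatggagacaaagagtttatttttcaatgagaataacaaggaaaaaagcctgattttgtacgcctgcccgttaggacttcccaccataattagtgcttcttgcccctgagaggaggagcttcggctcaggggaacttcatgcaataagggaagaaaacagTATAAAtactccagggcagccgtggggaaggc
Col11a1, chr3:114030290-114030539, plus strand: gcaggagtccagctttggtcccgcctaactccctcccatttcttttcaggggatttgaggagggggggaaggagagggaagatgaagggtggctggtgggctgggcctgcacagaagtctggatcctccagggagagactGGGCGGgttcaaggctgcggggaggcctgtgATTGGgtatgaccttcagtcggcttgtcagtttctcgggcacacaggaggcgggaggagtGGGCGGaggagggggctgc

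Of the 48 genes, 36 matched RefSeq's promoter table, with 39 windows. TATAAA was found in 5 member windows, or 12.8%, against 12.4% of all 32851 windows, and CCAAT in 13, or 33.3%, against 33.8%. GGGCGG, the core of a GC box, was found in 23 member windows, or 59.0%, against 32.7% of all windows. The CArG box, the site bound by serum response factor in smooth muscle genes, matched 1 member window, that of Col6a4, or 2.56%, against 1.47%. In Col10a1 the TATAAA match lies 27 to 32 bases before the start, and in Col11a2 it lies 138 to 143 bases before it. The motifs do not overlap one another in these 4 windows. A match is a description of letters in the window and does not show binding.

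Members were tested with limma on log2(value + 1) across all 8 libraries, with Benjamini-Hochberg adjustment over the 18097 genes that passed a low-value filter. Of the 48 members, 47 passed it. The exception was Col9a1, a chain of the cartilage collagen of type IX, with values of 7 and 0 in lung, 8, 8 and 6 in intestine and 1, 0 and 10 in bladder. In the F test over the 3 tissues, 41 of 47 members passed an adjusted p of 0.05, and 62.9% of all tested genes did. The 6 that did not were Col24a1, Col4a4, Col4a6, Col6a6, Col17a1 and Col26a1. Log2 differences are given below with their standard errors, on the log2(value + 1) scale, which understates changes of genes with low values.

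In intestine and in lung, more collagen and lysyl oxidase genes were called lower than bladder than were called higher. Some of the higher ones differed by large factors. In intestine the excess of lower calls lay among the densest members, whose counts are given below with a limit of the measurement. Against bladder, 13 members were higher in intestine, where 28.7% of all tested genes were, and 24 were lower, where 23.3% of all genes were. In lung, 8 members were higher than in bladder, against 19.2% of all genes, and 26 were lower, against 21.8%. Between lung and intestine, 13 were higher in lung, against 15.9% of all genes, and 14 were lower, against 23.6%. The libraries of the tissues did not overlap in any of these calls, which adds little to the test with 2 or 3 libraries per tissue. How often this held for the calls of all genes was not computed. The median log2 difference over the members was -0.53 for intestine minus bladder, -0.60 for lung minus bladder and -0.06 for lung minus intestine, and over all tested genes it was 0.06, 0.00 and -0.04. The first 2 comparisons share the bladder libraries.

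How the libraries are scaled to each other bears on these counts. Under all of 4 other scalings, 10 of the 13 higher and 15 of the 24 lower calls of intestine against bladder kept their call, as did 7 of 8 and 14 of 26 for lung against bladder, and 13 of 13 and 12 of 14 for lung against intestine. Of all tested genes, 19.7% were higher and 10.6% lower in intestine than bladder under every scaling, 16% and 10.4% in lung than bladder, and 15.9% and 16.3% in lung than intestine. With the deposited scaling undone, the split was 15 higher and 18 lower for intestine against bladder, and 13 higher and 14 lower for lung against bladder, where 45.9% and 10.7% of all genes, and 43.9% and 10.5%, were called. Quantile normalisation gave 10 higher and 17 lower in lung than bladder, where 18.5% and 18.2% of all genes were called. The calls of intestine below bladder that were lost in some scaling were those of Col1a1, Col1a2, Col3a1, Col5a3, Col4a1, Col4a2, Col6a1, Col6a3 and Col17a1.

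**Figure D1:**
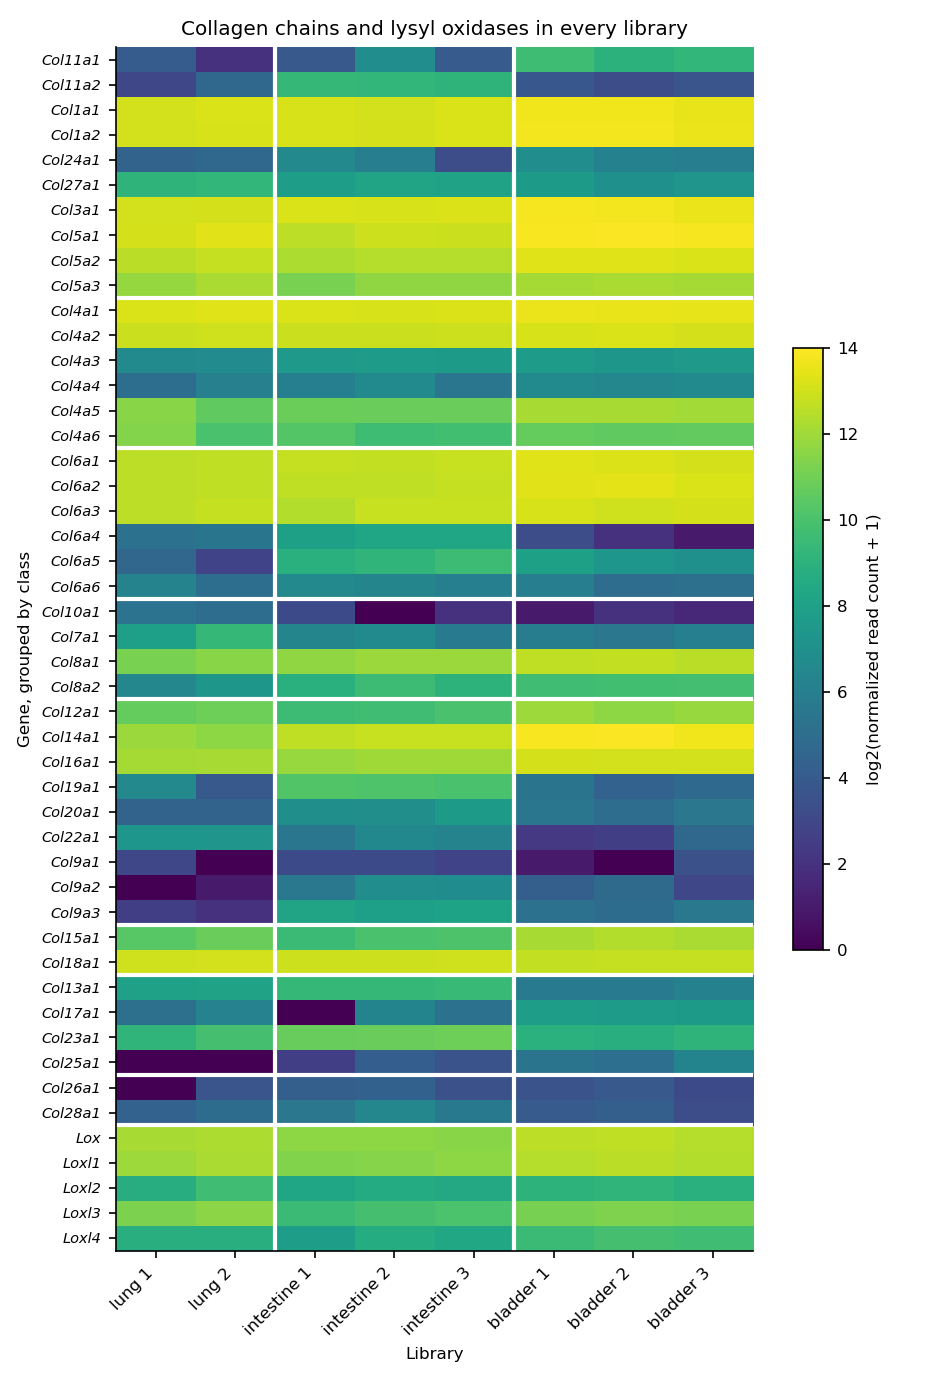
Normalised read counts of the 48 genes in every library, as log2(value + 1), with libraries along the bottom (lung, intestine, bladder) and genes down the side, grouped by class. The Col1a1, Col1a2, Col3a1, Col4a1 and Col4a2 rows are bright in all 8 libraries, and Col6a4, Col11a2 and Col19a1 are brighter in the 3 intestine libraries than in the others.

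**Figure D2:**
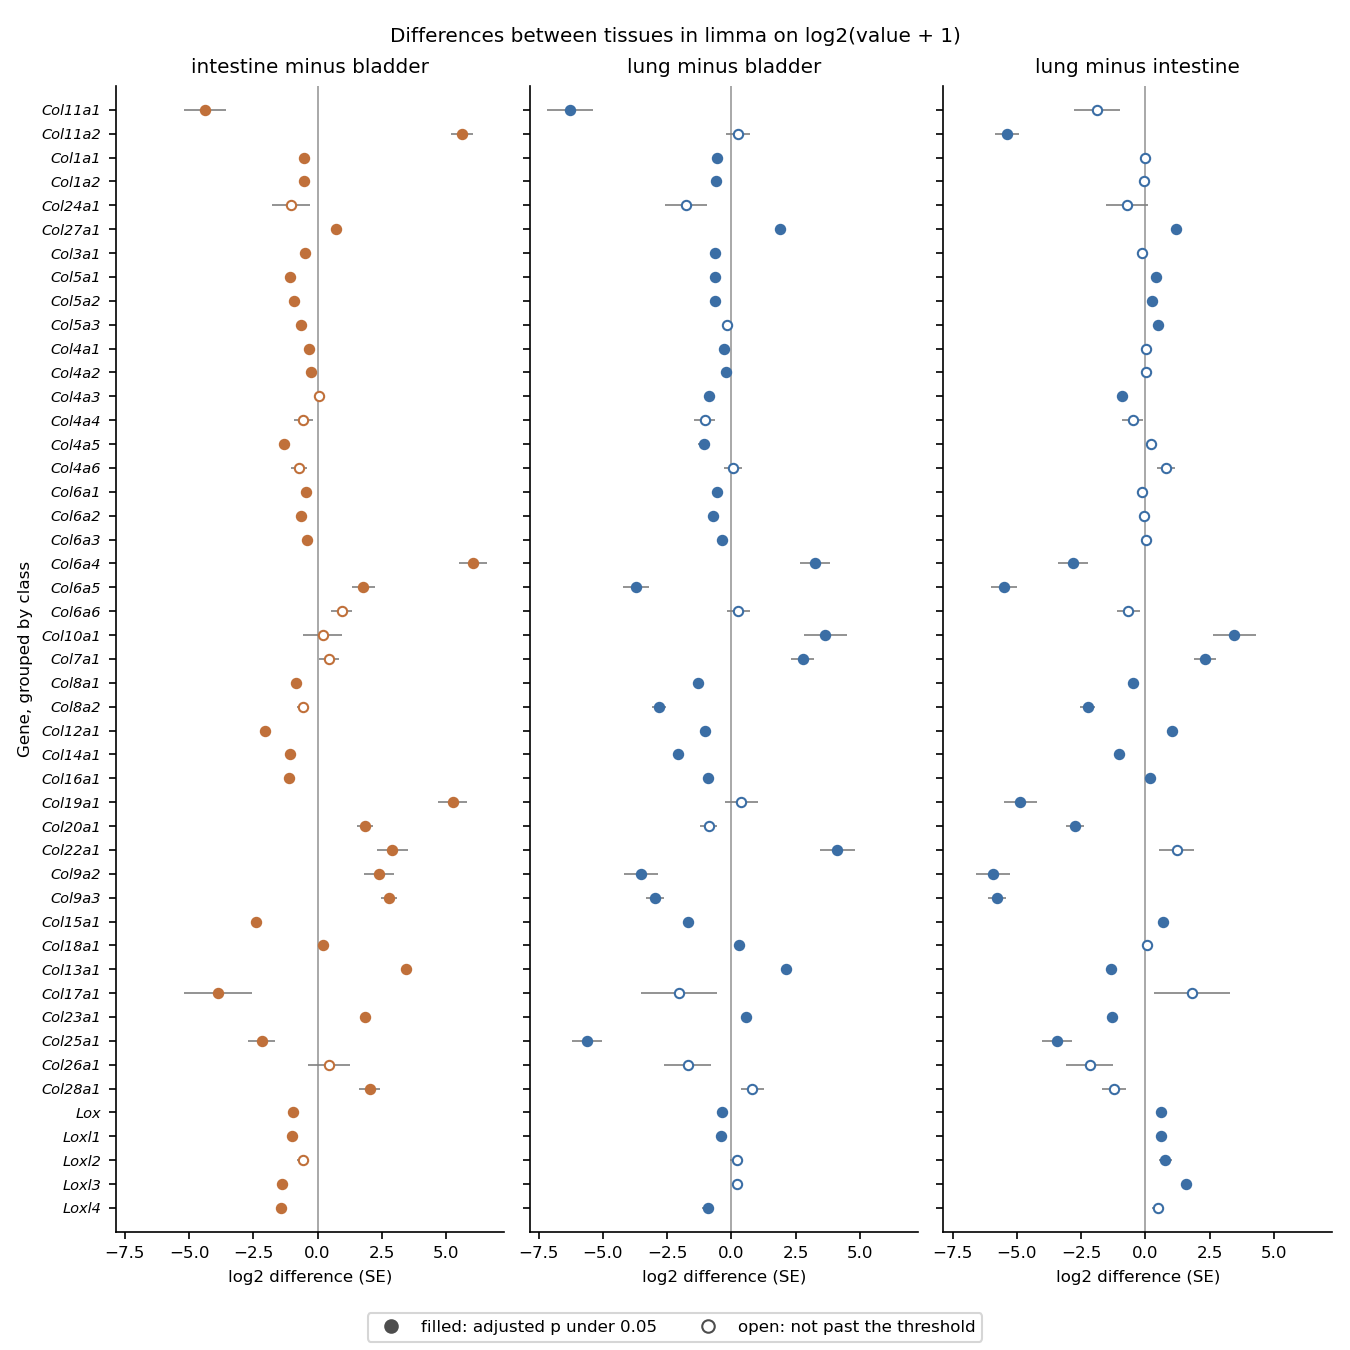
Log2 difference of each of the 47 tested genes with its standard error, for intestine minus bladder, lung minus bladder and lung minus intestine. Filled points passed an adjusted p of 0.05 and open points did not. Differences range from -4.38 (Col11a1) to 6.05 (Col6a4) for intestine minus bladder.

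The most abundant chains carried a specific limit of the measurement. Mean reads per nucleotide of the longest annotated transcript reached at most 2.1 in any gene of 1000 nt or more, and 713 genes, or 3.4%, had at least 1 read per nt. Of the members, 13 were that dense: Col1a1, Col1a2, Col3a1, Col5a1, Col5a2, Col4a1, Col4a2, Col6a1, Col6a2, Col14a1, Col16a1, Col18a1 and Loxl1. Of these 13, 1 was called higher and 12 lower than bladder in each of intestine and lung. Among the 700 other genes of this density, 44 were higher and 507 lower in intestine, and 50 and 460 in lung. The 34 tested members under 1 read per nt split into 12 higher and 12 lower in intestine, and 7 and 14 in lung. Over all tested genes the shares were 28.7% and 23.3% in intestine, and 19.2% and 21.8% in lung. The reads of the densest chains were nearly equal in all libraries: Col1a1 had 10106 and 10752 reconstructed reads in lung, 9710, 9847 and 9854 in intestine and 10688, 10808 and 10909 in bladder. The other 700 genes of this density had a median log2 difference of -0.38 for intestine minus bladder, with 80% of them between -0.78 and 0.05. For lung minus bladder their median was -0.36, with 80% between -0.84 and 0.10, and for lung minus intestine it was 0.00. With the deposited scaling undone the 3 medians were 0.02, 0.16 and 0.12. Whether reads of such genes follow the amount of RNA was not tested.

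**Figure D3:**
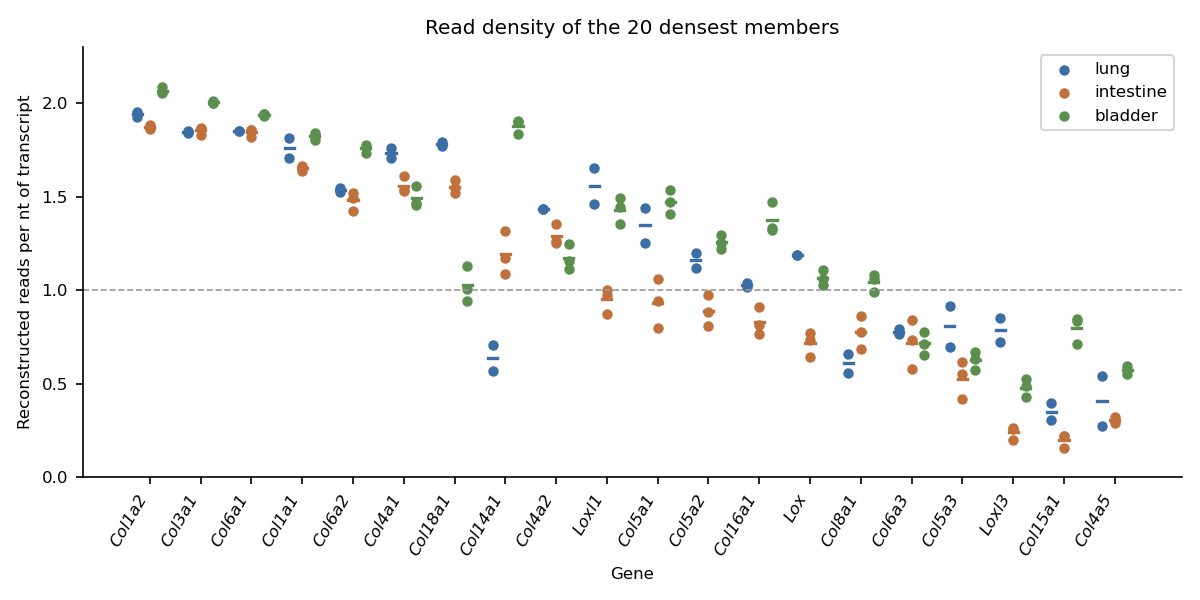
Reconstructed reads per nucleotide of transcript for the 20 densest members, with 1 point per library, a bar at the mean of each tissue and a dashed line at 1 read per nt. Col1a2, Col3a1 and Col6a1 lie close to 2 in lung, intestine and bladder alike.

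Among the fibrillar collagens, the chains of types I and III, which form the bulk of fibres, differed little in reads and were lower in intestine and lung than in bladder on the deposited scale. Col1a1 was at 8307 and 9311 in lung, 8933, 8557 and 9440 in intestine and 13552, 13510 and 11967 in bladder. Col1a2, the partner chain of Col1a1 in type I collagen, was at 8466 and 9043 in lung, 9154, 8757 and 9601 in intestine and 13958, 13730 and 12242 in bladder. Col3a1, whose type III collagen is abundant in distensible organs, was at 8423 and 8912 in lung, 9362, 9039 and 9934 in intestine and 14100, 13982 and 12224 in bladder. In each of these genes the lung and intestine libraries lay below all bladder libraries. The log2 differences were -0.53 ± 0.07, -0.54 ± 0.06 and -0.51 ± 0.06 for intestine minus bladder, and -0.56 ± 0.08, -0.60 ± 0.07 and -0.63 ± 0.07 for lung minus bladder. All passed the test, and all lay inside the range given above for 80% of the other dense genes. Under quantile normalisation the 3 intestine calls were lost, with differences of -0.07, -0.08 and 0.00, as was that of Col1a1 in lung, at -0.12. Between lung and intestine none of the 3 passed the test.

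The type V chains, which start fibrils and limit their diameter, were lowest in intestine. Col5a1 was at 8651 and 10490 in lung, 6183, 7721 and 7585 in intestine and 14970, 15472 and 14147 in bladder. For Col5a2 the values were 6092 and 6884 in lung, 4918, 5619 and 5591 in intestine and 10265, 10374 and 9402 in bladder. Intestine was lower than bladder by a log2 difference of -1.06 ± 0.10 (limma, adjusted p = 1.85e-05) for Col5a1 and -0.90 ± 0.07 (adjusted p = 8.44e-06) for Col5a2, below the range of 80% of the other dense genes. Both were higher in lung than in intestine, by 0.42 ± 0.11 and 0.27 ± 0.08. Col5a3, a chain of a tissue-restricted form of type V, was at 3504 and 4863 in lung, 2343, 3270 and 3229 in intestine and 4458, 4841 and 4477 in bladder. Its intestine values were lower than those of lung and bladder, while lung and bladder overlapped. The lung and intestine differences rested on lung library 2: without it they were 0.28, 0.18 and 0.27 for Col5a1, Col5a2 and Col5a3, with adjusted p of 0.126, 0.182 and 0.297 (limma). Without intestine library 1 those of Col5a2 and Col5a3 also missed the threshold, and the Col5a3 difference of 0.50 ± 0.17 passed only without lung library 1 or intestine library 2 among the fits that left out 1 library. The lower lung than bladder values of Col5a1 and Col5a2 were not called under quantile normalisation or with the deposited scaling undone.

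The type XI chains, whose collagen is best known from cartilage fibrils, went in opposite directions in intestine against bladder. Col11a2 (chromosome 17, 34258411 to 34285659, mm39) was at 7 and 25 in lung, 639, 616 and 540 in intestine and 13, 9 and 12 in bladder. Intestine was higher than bladder by 5.61 ± 0.42 (limma, adjusted p = 5.56e-06), 52.8-fold between the means. Lung was lower than intestine by -5.37 ± 0.47, which was -4.52 without lung library 1 and -6.22 without lung library 2. Col11a1 (chromosome 3, 113824189 to 114014367) was instead highest in bladder, with 16 and 3 in lung, 14, 117 and 15 in intestine and 811, 508 and 623 in bladder. It was lower than bladder by -4.38 ± 0.80 in intestine (adjusted p = 0.0014) and by -6.27 ± 0.90 in lung (adjusted p = 0.000495). Without intestine library 2, which was above the other intestine libraries, the first was -5.36, and without lung library 1 or 2 the second was -7.31 or -5.23.

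Marker lists were read beside these chains. Of the cartilage list, 7 of 8 genes were analysed here, with sums of 615 to 1006 in lung, 2719 to 3067 in intestine and 523 to 626 in bladder, most of it Sox9, which the gut epithelium also expresses. Its matrix gene Acan was at 18 and 3 in lung, 11, 6 and 0 in intestine and 0, 0 and 1 in bladder. Cnmd, a secreted protein of cartilage and tendon, was at 3 and 1 in lung, 9, 2 and 1 in intestine and 140, 113 and 114 in bladder, and was highest in bladder as Col11a1 was. The list as a whole did not follow it: of its 5 tested genes, 2 were higher and 1 lower than bladder in each of intestine and lung. Of all tested genes, 28.7% were higher and 23.3% lower in intestine, and 19.2% and 21.8% in lung. Genes listed as mesothelial summed to 606 to 1152 in lung, 1257 to 1552 in intestine and 4934 to 6650 in bladder. Of these, 5 of 6 were lower in intestine and 6 of 6 lower in lung than in bladder. The list holds Upk3b, Upk1b and the keratin gene Krt7, and whether mesothelium or bladder epithelium gave these values was not tested. Leukocyte markers summed to 1872 to 1877 in lung, 1250 to 1478 in intestine and 3387 to 5897 in bladder. In each of intestine and lung, 4 of 7 leukocyte markers were lower than bladder and 2 were higher. Their part in the higher bladder values was not tested.

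Of the minor fibrillar chains, Col27a1 was highest in lung. Its values were 557 and 625 in lung, 224, 284 and 265 in intestine and 194, 130 and 155 in bladder. Lung was higher than bladder by 1.90 ± 0.20 (limma, adjusted p = 7.85e-05) and higher than intestine by 1.20 ± 0.20 (adjusted p = 0.00126). Intestine was higher than bladder by 0.70 ± 0.18, a call that was lost under quantile normalisation, at 0.21. Col24a1 had 21 and 25 in lung, 95, 62 and 9 in intestine and 117, 71 and 62 in bladder, and passed no test. Col2a1, the main chain of cartilage fibrils, was not analysed here.

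In type IV collagen, the network of basement membranes, the ubiquitous chains differed little between tissues. Col4a1 was at 9278 and 10076 in lung, 9313, 9252 and 9726 in intestine and 12301, 12028 and 11293 in bladder. Col4a2, with which it forms the common heterotrimer, was at 7612 and 8002 in lung, 7418, 7572 and 7807 in intestine and 9093, 9336 and 8805 in bladder. They were lower than bladder by -0.33 ± 0.05 and -0.26 ± 0.05 in intestine and by -0.30 ± 0.06 and -0.22 ± 0.05 in lung, but the direction turned with the deposited scaling undone (0.06 and 0.14 in intestine, 0.22 and 0.29 in lung) and under quantile normalisation. The genes lie head to head on chromosome 8 and their annotated starts, on opposite strands, are 21 nt apart with overlapping ends. The library kit does not mark strand, so reads at such overlaps cannot be assigned to a gene.

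The X-linked type IV chains varied between the 2 lung libraries. Col4a5, part of the mature network of several basement membranes, smooth muscle included, was at 2915 and 1546 in lung, 1818, 1814 and 1816 in intestine and 4580, 4668 and 4260 in bladder. It was lower than bladder by -1.31 ± 0.18 in intestine (limma, adjusted p = 0.000277) and by -1.08 ± 0.21 in lung (adjusted p = 0.00251). The lung call was lost with the deposited scaling undone, at -0.57 (adjusted p = 0.0564). Col4a6, its partner chain in smooth muscle basement membranes, was at 2726 and 993 in lung, 1234, 802 and 865 in intestine and 1645, 1541 and 1566 in bladder. Lung library 1 held the highest Col4a6 value of all libraries and lung library 2 lay below all bladder libraries, and no comparison of Col4a6 passed the test. Lung minus bladder for Col4a6 was 0.06 ± 0.35 with both libraries, -0.67 without lung library 1 (adjusted p = 0.036) and 0.78 without lung library 2 (adjusted p = 0.0237). For Col4a5, lung minus intestine was 0.23 ± 0.21, and -0.23 or 0.68 without lung library 1 or 2. The starts of these 2 genes are 1343 nt apart on opposite strands of the X chromosome. Of the smooth muscle markers only Synpo2 differed likewise, with 4405 and 1694 in lung. The others were close between the lung libraries, such as Myh11 at 10795 and 10378 and Tagln at 475 and 485.

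Col4a3 and Col4a4, best known from kidney and lung basement membranes, were at low levels. Col4a3 was at 99 and 106 in lung, 182, 204 and 195 in intestine and 205, 170 and 191 in bladder. Lung was lower than bladder by -0.87 ± 0.18 (limma, adjusted p = 0.00459) and lower than intestine by -0.91 ± 0.18 (adjusted p = 0.00377), while intestine and bladder overlapped. The first call was lost with the deposited scaling undone, at -0.36, and the second under quantile normalisation, at -0.35. Col4a4 was at 32 and 67 in lung, 66, 98 and 44 in intestine and 104, 89 and 98 in bladder, and passed no test.

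Type VI collagen forms beaded filaments between cells and fibres, and its common chains behaved like the type I chains. Col6a1 was at 6234 and 6565 in lung, 6861, 6610 and 7287 in intestine and 10039, 9957 and 8740 in bladder. Col6a2 was at 6159 and 6575 in lung, 6441, 6496 and 7032 in intestine and 10788, 10838 and 9584 in bladder. For Col6a3, the long chain, the values were 6345 and 6932 in lung, 5395, 7384 and 7116 in intestine and 9130, 8270 and 8615 in bladder. All 3 were lower in intestine and lung than in bladder, by log2 differences between -0.71 and -0.39. Of the 3, Col6a2 kept both calls under all 4 other scalings. With the deposited scaling undone Col6a3 in lung turned to 0.13, and under quantile normalisation Col6a1 in intestine turned to 0.02. The lung call of Col6a3 was also lost without bladder library 1 or 3 or without either lung library (limma, adjusted p of 0.0825, 0.0635, 0.147 and 0.0652).

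The alternative type VI chains, which resemble Col6a3 and stand in for it in some tissues, were rarer and differed far more. Col6a4 (chromosome 9, 105866653 to 105973982, mm39) was at 38 and 42 in lung, 247, 303 and 308 in intestine and 9, 3 and 1 in bladder. The 3 tissues did not overlap. Col6a4 was higher than bladder by 6.05 ± 0.53 in intestine (limma, adjusted p = 1.42e-05) and by 3.25 ± 0.59 in lung (adjusted p = 0.00199), and lower in lung than in intestine by -2.80 ± 0.59. Without bladder library 1 the bladder differences were 6.66 and 3.86. Col6a5, its neighbour on chromosome 9, was at 24 and 6 in lung, 467, 580 and 770 in intestine and 247, 165 and 127 in bladder. It was also highest in intestine but lowest in lung, at 1.77 ± 0.45 for intestine minus bladder (adjusted p = 0.00863), -3.72 ± 0.50 for lung minus bladder (adjusted p = 0.000353) and -5.49 ± 0.50 for lung minus intestine. Without lung library 1 or 2 the lung differences were -4.64 or -2.80 against bladder and -6.41 or -4.57 against intestine. Col6a6, the next gene in the same region, was at 77 and 32 in lung, 94, 82 and 64 in intestine and 63, 31 and 35 in bladder, and passed no test.

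Among the anchoring and short chain collagens, Col7a1 and Col10a1 were highest in lung and the type VIII chains were lowest there. Col7a1, whose collagen forms anchoring fibrils below epithelia, was at 237 and 646 in lung, 81, 104 and 54 in intestine and 60, 46 and 65 in bladder. Lung was higher than bladder by 2.77 ± 0.44 (limma, adjusted p = 0.000891) and higher than intestine by 2.33 ± 0.44 (adjusted p = 0.00245). The size rested on lung library 2: without it the differences were 2.05 and 1.61, and without lung library 1 they were 3.49 and 3.05. Col10a1, known from hypertrophic cartilage, had 40 and 31 in lung, 8, 0 and 3 in intestine and 1, 3 and 2 in bladder, so that intestine and bladder lay near the floor. The lung differences were 3.65 ± 0.84 against bladder (adjusted p = 0.0068) and 3.46 ± 0.84 against intestine (adjusted p = 0.0095). The second was 4.18 without intestine library 1 and 2.59 without intestine library 2. Col10a1 overlaps Nt5dc1, which lies on the opposite strand and averaged 394.1, so reads from where the 2 genes overlap cannot be told apart.

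Type VIII collagen forms networks in vessel walls and below the corneal endothelium. Col8a1 was at 2337 and 2920 in lung, 3232, 3834 and 3797 in intestine and 6403, 6763 and 6048 in bladder, with all 3 pairs of tissues past the threshold. Without lung library 1 its lung minus intestine difference of -0.47 ± 0.11 was -0.31 (limma, adjusted p = 0.0525). Col8a2 was at 88 and 168 in lung, 474, 782 and 528 in intestine and 828, 867 and 888 in bladder. Lung was lower than bladder by -2.81 ± 0.28 (adjusted p = 5.16e-05) and lower than intestine by -2.25 ± 0.28 (adjusted p = 0.000202). The intestine difference from bladder, -0.57 ± 0.25, did not pass (adjusted p = 0.0837), but it did without either lung library (adjusted p = 0.0251 and 0.0261), without intestine library 2, at -0.78 (adjusted p = 0.0356), under quantile normalisation and with scaling from genes under 0.2 reads per nt.

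The FACIT class held members with differences in both directions. Its large, widely expressed chains were lower than in bladder in both other tissues. Col14a1, found on fibrils of load-bearing tissues, was at 3756 and 3169 in lung, 6462, 7377 and 7242 in intestine and 15009, 15313 and 13481 in bladder, and each pair of tissues differed by about a log2 unit or more: -1.06 ± 0.08 for intestine minus bladder, -2.08 ± 0.09 for lung minus bladder and -1.02 ± 0.09 for lung minus intestine. These differences were outside the range of 80% of the other dense genes. Col12a1, likewise a chain of fibrils under tension, was at 1668 and 1896 in lung, 774, 835 and 1016 in intestine and 3960, 3155 and 3694 in bladder. It was lowest in intestine, with -2.04 ± 0.12 against bladder (limma, adjusted p = 1.47e-06) and a lung minus intestine difference of 1.03 ± 0.13 (adjusted p = 0.000283). Col16a1 was at 4359 and 4674 in lung, 3671, 4127 and 4060 in intestine and 8795, 8596 and 8406 in bladder. Its lung minus intestine difference, 0.19 ± 0.06, was lost in 6 of the 8 fits that left out 1 library, at an adjusted p of 0.0507 to 0.2, the highest of these without lung library 2.

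Other FACIT chains were found mostly in the intestine libraries. Col19a1 (chromosome 1, 24300971 to 24626553, mm39) was at 95 and 14 in lung, 1165, 1149 and 1022 in intestine and 41, 20 and 27 in bladder. Intestine was higher than bladder by 5.25 ± 0.58 (limma, adjusted p = 5.81e-05), 37.9-fold between the means, and lung was lower than intestine by -4.87 ± 0.64. The lung libraries differed, so that the last value was -6.21 without lung library 1 and -3.53 without lung library 2. Col9a3, which with Col9a2 and Col9a1 makes the cartilage type IX trimer, was at 5 and 3 in lung, 292, 238 and 276 in intestine and 38, 30 and 47 in bladder. Col9a2 was at 0 and 1 in lung, at the floor, 47, 116 and 110 in intestine and 18, 28 and 7 in bladder. In both genes all intestine libraries were above all bladder libraries and these above all lung libraries, with intestine minus bladder differences of 2.80 ± 0.31 and 2.38 ± 0.59. The Col9a2 call was lost under quantile normalisation, at 1.56. Col20a1 followed with 21 and 21 in lung, 126, 122 and 200 in intestine and 44, 31 and 46 in bladder, and overlaps the long noncoding gene 9230112E08Rik, which averaged 50.6.

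Col22a1 differed from these in being highest in lung. It encodes a collagen of myotendinous junctions. Its values were 164 and 155 in lung, 44, 92 and 77 in intestine and 4, 5 and 25 in bladder. It was higher than bladder by 4.12 ± 0.67 in lung (limma, adjusted p = 0.0011) and by 2.90 ± 0.60 in intestine (adjusted p = 0.00292), and by 4.87 and 3.65 without bladder library 3. Lung minus intestine, 1.22 ± 0.67, did not pass the test although the libraries did not overlap.

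Markers of other cell types were also higher in the intestine libraries, where Col19a1, Col11a2, Col9a2, Col9a3, Col6a4 and Col6a5 were highest. Neuronal markers summed to 840 to 1431 in lung, 2917 to 3037 in intestine and 781 to 912 in bladder, and 6 of 6 were higher in intestine than in bladder. Among them Snap25, a protein of synaptic vesicle release, was at 6 and 0 in lung, 563, 611 and 609 in intestine and 0 in all 3 bladder libraries. Glial markers summed to 220 to 301 in lung, 1522 to 2076 in intestine and 156 to 222 in bladder, with 7 of 7 higher in intestine than bladder, and Sox10 was at 0 in both lung libraries. Epithelial markers summed to 695 to 1087 in lung, 15710 to 16579 in intestine and 4019 to 6238 in bladder, with 7 of 8 higher in intestine and 8 of 8 lower in lung than in bladder. Endothelial markers summed to 7993 to 8732 in lung, 14064 to 16273 in intestine and 5254 to 6979 in bladder. Of these 10, 9 were higher and 1 lower in intestine than in bladder, and 6 were higher and 2 lower in lung. Pericyte markers, Cspg4 among them, summed to 20816 to 24587 in lung, 25060 to 26354 in intestine and 9585 to 9976 in bladder. Of these 8, 6 were higher than bladder in each of intestine and lung, and 1 and 0 were lower. Of all tested genes, 28.7% were higher and 23.3% lower in intestine than in bladder, and 19.2% and 21.8% in lung. The part of these cell types in the collagen differences was not tested.

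The multiplexins, which lie between basement membranes and fibres, split. Col15a1 was at 1299 and 1767 in lung, 747, 997 and 1082 in intestine and 4677, 5381 and 4811 in bladder. It was lower than bladder by -2.41 ± 0.15 in intestine (limma, adjusted p = 2.16e-06) and by -1.71 ± 0.17 in lung (adjusted p = 5.58e-05). Its lung minus intestine difference of 0.70 ± 0.17 was 0.48 without lung library 2 (adjusted p = 0.0953). Col18a1, the source of endostatin, was at 8242 and 8585 in lung, 7955, 7724 and 8153 in intestine and 6683, 7033 and 6945 in bladder. It was the only dense member higher in intestine and lung than in bladder, by 0.21 ± 0.04 and 0.29 ± 0.05, above the range of 80% of the other dense genes. Its intestine call was lost when the scaling was taken from genes under 0.2 reads per nt, at 0.06. Col18a1 overlaps Slc19a1 on the opposite strand, which averaged 779.9.

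The transmembrane collagens, which span the cell membrane and carry their helices outside it, differed in both directions. Col13a1, a collagen of cell adhesions and neuromuscular junctions, was at 261 and 265 in lung, 648, 646 and 678 in intestine and 56, 53 and 70 in bladder. Its libraries were tightly grouped by tissue. It was higher than bladder by 3.45 ± 0.16 in intestine (limma, adjusted p = 4.61e-07) and by 2.13 ± 0.18 in lung (adjusted p = 1.79e-05), and lower in lung than intestine by -1.32 ± 0.18 (adjusted p = 0.000325). Col23a1 was at 578 and 930 in lung, 1721, 1760 and 1918 in intestine and 492, 446 and 552 in bladder, and was higher in intestine than in bladder by 1.86 ± 0.16. The lung minus bladder difference of Col23a1, 0.57 ± 0.18, was lost in 6 of the 8 fits that left out 1 library, at an adjusted p of 0.0577 to 0.231, the highest without lung library 2.

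Col25a1 and Col17a1 were instead highest in bladder. Col25a1, known from the developing motor nerve contact, was listed at 0 and 0 in lung, 5, 17 and 11 in intestine and 41, 34 and 80 in bladder. With the floor of 3 reads per library, lung was at least 20.4-fold lower than bladder and at least 4.34-fold lower than intestine on the deposited scale. The lung minus intestine call was lost under quantile normalisation, at -1.86 (limma, adjusted p = 0.0615), against -3.45 on the deposited scale. Intestine was lower than bladder by -2.17 ± 0.53 (limma, adjusted p = 0.0067). Col17a1, a hemidesmosome protein of epithelial cells, was at 35 and 72 in lung, 0, 78 and 37 in intestine and 225, 210 and 196 in bladder. Its intestine minus bladder difference of -3.87 ± 1.33 (adjusted p = 0.0348) rested on the 0 in intestine library 1, without which it was -1.95 (adjusted p = 0.00722). Without intestine library 2 or 3 it was -5.10 or -4.57, and it missed the threshold without any 1 bladder or lung library, at an adjusted p of 0.0511 to 0.0813. Col28a1, known from basement membranes around peripheral glia, was at 20 and 30 in lung, 46, 87 and 49 in intestine and 15, 18 and 9 in bladder, and was higher in intestine than bladder by 2.03 ± 0.41. Col26a1 was at 0 and 12 in lung, 18, 19 and 10 in intestine and 11, 14 and 8 in bladder, and passed no test.

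The lysyl oxidases were lowest in intestine. Lox, the founding enzyme, was at 4637 and 4885 in lung, 3205, 3185 and 2909 in intestine and 6181, 6562 and 5500 in bladder. Loxl1, which is needed for elastic fibre renewal, was at 3951 and 4722 in lung, 2649, 2798 and 3167 in intestine and 5665, 5951 and 5404 in bladder. In both genes the 3 tissues did not overlap. The intestine minus bladder differences were -0.97 ± 0.07 and -0.99 ± 0.09, and the lung minus intestine differences were 0.62 ± 0.08 (limma, adjusted p = 0.000314) and 0.59 ± 0.10 (adjusted p = 0.00112), and all 4 held under each of the 4 other scalings. Lung was lower than bladder by -0.35 ± 0.08 and -0.39 ± 0.10, but these turned to 0.16 and 0.12 with the deposited scaling undone and to 0.11 and 0.04 under quantile normalisation.

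Loxl3 had the widest spread of the family. It was at 2427 and 3019 in lung, 758, 918 and 1041 in intestine and 2221, 2485 and 2356 in bladder. Intestine was lower than bladder by -1.39 ± 0.13 (limma, adjusted p = 1.7e-05), and lung was higher than intestine by 1.59 ± 0.14 (adjusted p = 2.18e-05), while lung and bladder overlapped. Loxl3 overlaps Htra2 on the opposite strand, which averaged 858.0. Loxl4 was at 431 and 457 in lung, 219, 410 and 339 in intestine and 746, 925 and 835 in bladder, lower than bladder by -1.41 ± 0.21 in intestine and by -0.91 ± 0.23 in lung. The lung call of Loxl4 was lost without lung library 1 (adjusted p = 0.0555), as was that of Loxl1 (adjusted p = 0.0735). With the deposited scaling undone the Loxl4 difference was -0.40 and not called (adjusted p = 0.224). Loxl2, which acts on type IV collagen, was at 425 and 841 in lung, 316, 385 and 343 in intestine and 534, 563 and 469 in bladder. Its lung minus intestine difference of 0.78 ± 0.25 (adjusted p = 0.0327) was 0.29 without lung library 2 (adjusted p = 0.215), and it was also lost without any 1 intestine library, at an adjusted p of 0.0576 to 0.1.

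As a class, 0 of 5 lysyl oxidases were higher and 4 of 5 were lower in intestine than in bladder, against 28.7% and 23.3% of all tested genes. In lung, 0 were higher and 3 lower than in bladder, against 19.2% and 21.8%. Compared with intestine, 4 were higher and 0 lower in lung, against 15.9% and 23.6%. With the deposited scaling undone, the lower lung calls of Lox, Loxl1 and Loxl4 were lost. Loxl2 and Loxl3 were then called higher in lung than in bladder, by 0.71 each, as were 43.9% of all genes. Under quantile normalisation Loxl3 was called higher, at 0.46, and Loxl4 stayed lower. In reads per nt of transcript, Loxl1 led in each tissue with 1.56 in lung, 0.951 in intestine and 1.43 in bladder. Lox followed with 1.19 in lung, 0.716 in intestine and 1.06 in bladder. These reads are not adjusted for depth, so they do not compare tissues, and the limit given above for dense genes applies to Loxl1. Loxl3 was next at 0.786 in lung, 0.241 in intestine and 0.479 in bladder. Loxl4 and Loxl2 were lowest, between 0.0718 and 0.186.

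**Figure D4:**
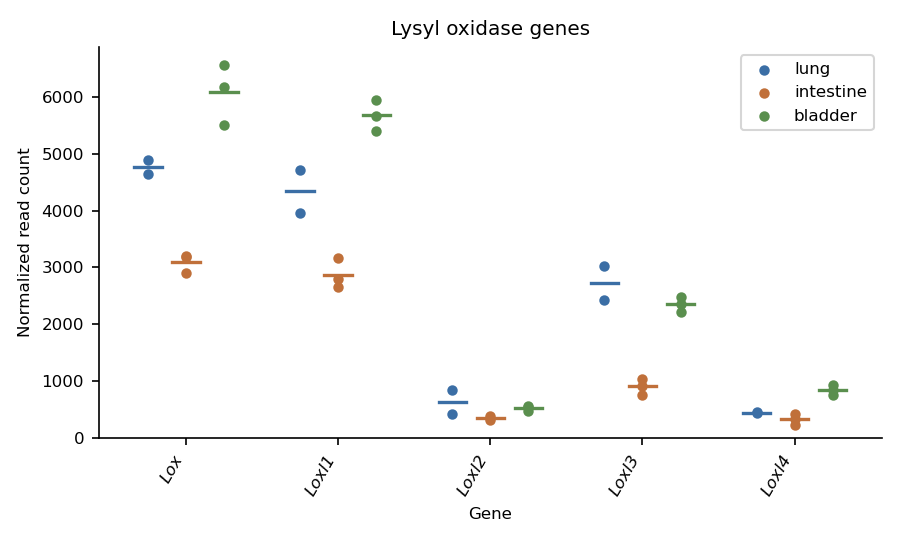
Normalised read counts of the 5 lysyl oxidase genes, with 1 point per library and a bar at the mean of each tissue (lung, intestine, bladder). The 3 intestine libraries lie below all lung and bladder libraries in Lox, Loxl1, Loxl2, Loxl3 and Loxl4.

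The make-up of collagen RNA within a library does not depend on the scaling between libraries. Collagen chains summed to 0.972 and 1.06% of all values in lung, 0.944, 1.01 and 1.04% in intestine and 1.44, 1.43 and 1.37% in bladder. These percentages include the dense chains, so the limit given above applies to them, and reconstructed depth was lowest in the bladder libraries. How far this raised the bladder percentages was not tested. In reads per nt of exon, the FACIT share of collagen RNA was 8.98% ± 0.59 in lung (SD, n = 2), 12.8% ± 0.40 in intestine and 16.1% ± 0.15 in bladder (SD, n = 3 each). The exact permutation F test over all 560 assignments of the libraries gave p = 0.00357, the smallest it can give, or 0.00952 after Benjamini-Hochberg adjustment over the 12 shares and ratios tested. The transmembrane share was 1.34% ± 0.27 in lung, 3.05% ± 0.03 in intestine and 0.617% ± 0.080 in bladder, with the same p. The type VI share was 19.1% ± 0.07 in lung, 20.0% ± 0.34 in intestine and 18.5% ± 0.39 in bladder (exact permutation test, adjusted p = 0.00952). The transmembrane and type VI shares kept their order of tissues without the 12 collagen members of at least 1 read per nt. The FACIT share did not: without them, Col14a1 and Col16a1 included, intestine exceeded bladder by 5.32 percentage points (exact permutation test, p = 0.0143).

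The fibrillar and type IV shares also depended on the dense members. The fibrillar share was 36.9% ± 1.9 in lung, 33.0% ± 0.25 in intestine and 35.3% ± 0.43 in bladder (exact permutation test, adjusted p = 0.0129). The type IV share was 21.0% ± 2.2 in lung, 18.6% ± 0.70 in intestine and 17.1% ± 0.21 in bladder (exact permutation test, adjusted p = 0.00952). Without the dense members the difference of intestine from bladder turned to 0.78 percentage points in the fibrillar share and to -6.38 in the type IV share. Without lung library 2 the fibrillar share of lung exceeded that of bladder by 0.20 points, and without lung library 1 the type IV share of lung exceeded that of intestine by 0.77 points, and both exact tests gave p = 0.0571. Ratios between chains were also taken. The log2 ratio of Col1a1 to Col1a2 was 0.01 ± 0.05 in lung, -0.03 ± 0.01 in intestine and -0.03 ± 0.01 in bladder (exact permutation test, adjusted p = 0.107), and that of Col4a1 to Col4a2 was 0.31 ± 0.03 in lung, 0.31 ± 0.02 in intestine and 0.39 ± 0.04 in bladder (exact permutation test, adjusted p = 0.0545). Col6a1 to Col6a2 was 0.01 ± 0.01 in lung, 0.06 ± 0.03 in intestine and -0.12 ± 0.02 in bladder, and Col3a1 to Col1a1 was -0.02 ± 0.06 in lung, 0.07 ± 0.01 in intestine and 0.05 ± 0.01 in bladder (exact permutation tests, adjusted p = 0.00952 each). All of these genes had at least 1 read per nt.

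Genes that make, fold, secrete and trim collagen were examined as a list of 32. In intestine 4 were higher and 24 lower than in bladder, against 28.7% and 23.3% of all tested genes. In lung 3 were higher and 23 lower than in bladder, against 19.2% and 21.8%. Between lung and intestine, 16 were higher and 8 lower in lung, against 15.9% and 23.6%. The median log2 differences over the list were -0.86, -0.49 and 0.32. P4hb, Serpinh1, Sparc, Creb3l1, Fkbp10, Crtap, Pcolce, Sec24d and Adamts2 had at least 1 read per nt. All were called lower than bladder in both tissues, and the limit given above applies to them. Among 700 other dense genes, 507 were lower in intestine and 460 in lung, with 44 and 50 higher. P4hb had 4676 to 4841 reconstructed reads in every library. In intestine Crtap, Fkbp10, Sec24d, Creb3l1 and Adamts2 fell below the range given above, as did Creb3l1 in lung. The list's lung and bladder counts depended on the scaling. With the deposited scaling undone 8 were higher and 9 lower, against 43.9% and 10.5% of all genes. Under quantile normalisation 3 were higher and 12 lower, against 18.5% and 18.2%. Of the fibroblast markers, 12 of 12 were lower than bladder in intestine and in lung. This went with these counts and with the lower type I, III and V chains. Pcolce, the enhancer of procollagen trimming, is on both lists. Of these markers, Gsn, Clec3b, Dpt, Ly6a, Lum, Cd34, Scara5, Pcolce and Mfap5 had at least 1 read per nt. The limit given above for dense genes applies to them. Gsn was called lower, at -0.46 in intestine and -0.58 in lung, with 5420 to 5759 reconstructed reads in every library. Scara5 and Pi16 fell below the range given above for other dense genes in both tissues. Pdgfra, Dpt, Clec3b and Cd34 did so in lung only. The part of fibroblast content was not tested.

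The prolyl 4-hydroxylase subunit P4ha3 had the largest lung minus intestine difference of the 32. It was at 2173 and 2711 in lung, 210, 167 and 141 in intestine and 687, 753 and 790 in bladder, with a lung minus intestine difference of 3.83 ± 0.18 (limma, adjusted p = 5.81e-07) and a lung minus bladder difference of 1.71 ± 0.18 (adjusted p = 6.4e-05). Its paralog P4ha1 was at 1318 and 1598 in lung, 1421, 1249 and 1361 in intestine and 3266, 3201 and 2934 in bladder, with no difference between lung and intestine past the threshold. Plod2, the lysyl hydroxylase that prepares collagen ends for cross-links, was at 1276 and 1339 in lung, 1042, 1038 and 943 in intestine and 3160, 3304 and 2927 in bladder, lower than bladder by -1.63 ± 0.08 and -1.26 ± 0.08 in intestine and lung. Fkbp14, a prolyl isomerase of collagen folding, was lower than bladder by -1.64 ± 0.09 and -1.16 ± 0.10. P3h1, a prolyl 3-hydroxylase, was at 2316 and 2975 in lung, 1111, 994 and 1059 in intestine and 2914, 2931 and 2836 in bladder, so that intestine was called lower than bladder and lung was not. P3h3 was at 2226 and 2313 in lung, 1600, 1722 and 1862 in intestine and 3751, 4156 and 3927 in bladder. P4ha2 and P3h4 were higher in lung than in intestine by 1.08 ± 0.11 and 0.82 ± 0.09, and Plod1, another lysyl hydroxylase, was lower in lung than in bladder by -0.99 ± 0.07.

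Some processing genes went against the rest of the list. P3h2, the prolyl 3-hydroxylase of basement membrane collagen, was at 485 and 293 in lung, 764, 690 and 638 in intestine and 84, 79 and 82 in bladder. It was higher than bladder by 3.08 ± 0.19 in intestine (limma, adjusted p = 1.95e-06) and by 2.19 ± 0.21 in lung (adjusted p = 4.78e-05). Tmem38b, an endoplasmic reticulum cation channel needed for collagen folding in bone, was at 1177 and 1146 in lung, 1784, 1474 and 1469 in intestine and 393, 442 and 397 in bladder, higher than bladder by 1.93 ± 0.10 in intestine and by 1.5 ± 0.11 in lung. Colgalt2, a collagen galactosyltransferase, was at 84 and 53 in lung, 186, 277 and 293 in intestine and 70, 66 and 94 in bladder. It was lower in lung than in intestine by -1.87 ± 0.31 (adjusted p = 0.00118), and Mia2, an export factor for large cargo, by -0.42 ± 0.07 (adjusted p = 0.00184).

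**Figure D5:**
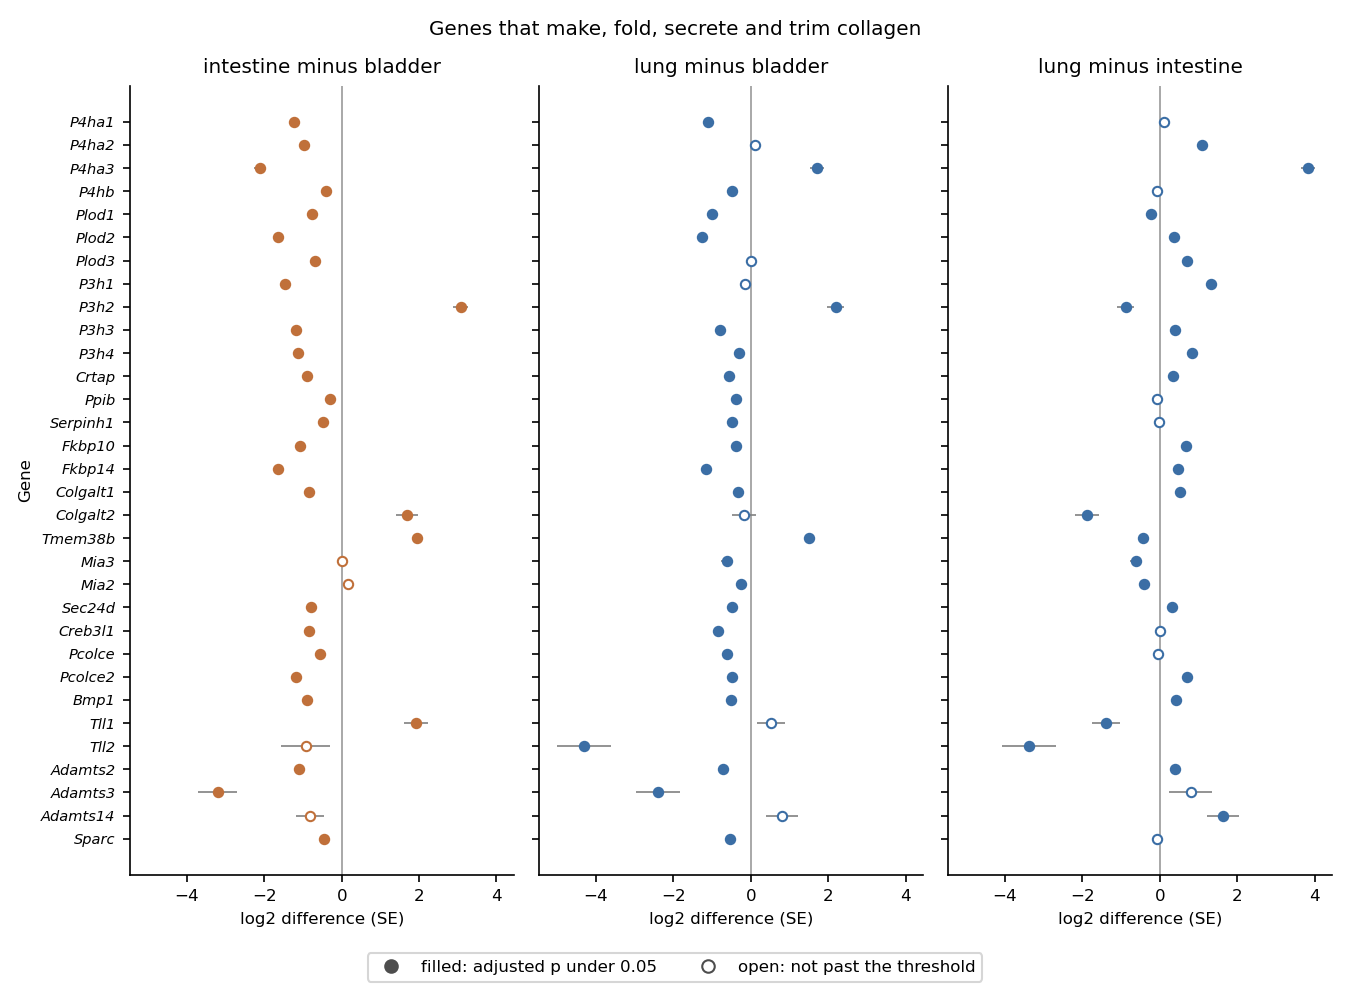
Log2 difference with its standard error of the 32 genes that make, fold, secrete and trim collagen, for intestine minus bladder, lung minus bladder and lung minus intestine. Filled points passed an adjusted p of 0.05. P3h2 and Tmem38b lie to the right of 0 in both comparisons with bladder, and P4ha3 lies at 3.83 for lung minus intestine.

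Of 8 collagen receptors and uptake genes, 3 were higher and 3 lower than bladder in each of intestine and lung. Of all tested genes, 28.7% were higher and 23.3% lower in intestine, and 19.2% and 21.8% in lung. Between lung and intestine, 2 of the 8 were higher and 2 lower in lung, against 15.9% and 23.6% of all genes. With 8 genes, these counts do not set the list apart from all genes. Itga11, the integrin subunit that binds fibrillar collagen on fibroblasts, was at 161 and 116 in lung, 1653, 2118 and 2044 in intestine and 3290, 3185 and 3780 in bladder. Lung was lower than bladder by -4.63 ± 0.16 (limma, adjusted p = 1.66e-07) and lower than intestine by -3.81 ± 0.16. Itga1, whose integrin binds type IV collagen and is typical of smooth muscle, was instead lowest in bladder, with 3005 and 2128 in lung, 2640, 2576 and 2256 in intestine and 699, 348 and 482 in bladder. It was higher than bladder by 2.34 ± 0.23 in intestine and 2.37 ± 0.25 in lung. The discoidin domain receptor Ddr1 was higher in intestine and lung than in bladder, by 0.50 ± 0.08 and 0.95 ± 0.09, and Ddr2 was lower, by -0.94 ± 0.11 and -0.48 ± 0.12. Mrc2, which takes up collagen fragments, was lower by -1.19 ± 0.11 and -1.48 ± 0.12.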

How the data were processed

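Per the labels' protocols, SMART-Seq v4 libraries were made from up to 10 ng of RNA purified with the miRNeasy micro kit after DNase. Build mm39, DESeq2 1.36.0, featureCounts 2.0.4, Picard 3.0.0, STAR 2.7.10a and Trimmomatic 0.39 appear in the submitters' processing notes without roles or order. For annotation, strand setting and filters, nothing is given in the sources used here. The deposited values are treated as a score: read counts that the authors scaled by one constant per library and rounded, as the spacing of the values shows. Because they are not raw counts, no count test was run. The value of 1 read, estimated from the spacing, was 0.822 and 0.866 in lung, 0.92, 0.869 and 0.958 in intestine and 1.268, 1.25 and 1.097 in bladder libraries. Dividing by it gave reconstructed reads. Their lengths came from GENCODE M21, and the longest transcript was chosen after the values were seen.

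Here limma 3.58.1 (R 4.3.3) was fitted with an intensity trend to log2(value + 1) of all 8 libraries. The filter kept 18097 genes, those that reached 10 in 2 or more libraries. The code was tested on simulated data. Exact permutation tests went over all assignments of the libraries to the tissues, and their Benjamini-Hochberg adjustment used scipy 1.17.1. Values per library are given for lysyl oxidases, for types I, III, IV, V and VI, and for up to 6 called members per pair of tissues and direction by size of the difference. Processing genes were named by smallest adjusted p, up to 4 per pair, with up to 2 that went against the rest. The rest were chosen after their values were seen. The members and all gene lists were chosen with earlier results of these data known. Alternatives covered scaling, pseudocount, filter, variance model, replicate block and leaving out each library.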

Additional observations from a re-analysis of the deposited data

How the results depend on the processing

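Of 141 differences (47 members in 3 pairs), 139 kept their direction and side of the threshold with a pseudocount of 5, 141 without a filter, 137 with equal totals, 136 with scaling from genes under 0.2 reads per nt (chosen after seeing the data), 117 with the deposited scaling undone and 111 under quantile normalisation. The median over members for intestine minus bladder was -0.443 with equal totals, -0.412 under quantile normalisation, -0.14 with scaling undone and -0.677 with low-density scaling. For lung minus bladder it was -0.458, -0.119 and -0.092 in the first 3, and -0.662 to -0.539 without 1 library. For lung minus intestine it was 0.053 with scaling undone and 0.03 with low-density scaling. The median of all genes was 0.449, 0.478 and 0.074 with scaling undone and -0.149, 0.031 and 0.178 under quantile normalisation, in the same order of pairs. Members lower in lung than bladder numbered 17 under quantile normalisation and 14 with scaling undone, where 13 were higher. Without the intensity trend 8 were higher in lung than intestine. Processing genes lower in lung than bladder numbered 12 under quantile normalisation and 9 with scaling undone, where 8 were higher, and 5 were lower in lung than intestine.

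Under quantile normalisation, intestine minus bladder turned to 0.0 (Col3a1), 0.173 (Col4a1), 0.197 (Col4a2), -0.501 (Col4a3), 0.024 (Col6a1) and 0.0 (Col6a3), and lung minus bladder to 0.157 (Col4a1), 0.198 (Col4a2), 0.125 (Col6a3), 0.112 (Lox) and 0.041 (Loxl1). With scaling undone, intestine minus bladder was 0.062 (Col4a1) and 0.138 (Col4a2), and lung minus bladder was 0.216 (Col4a1), 0.294 (Col4a2), 0.126 (Col6a3), 0.161 (Lox) and 0.119 (Loxl1). Without 1 library, Col4a6 lung minus bladder ranged from -0.673 to 0.783 and Col4a5 lung minus intestine from -0.232 to 0.682. Without members of at least 1 read per nt, intestine minus bladder was 0.781 percentage points in the fibrillar share and 5.321 in the FACIT share, and the type IV share differed by -6.383 for intestine minus bladder, 1.201 for lung minus bladder and 7.584 for lung minus intestine (exact permutation test, p = 0.261). Without those of at least 1 read per exon nt, a smaller set chosen after seeing the data, the fibrillar value was 0.354, the FACIT value -0.706 and the type IV values -2.588, 0.7 and 3.288 (exact permutation test, p = 0.421). Without 1 library, the fibrillar differences ranged from -2.511 to -2.128, from 0.201 to 2.947 and from 2.467 to 5.213 for intestine minus bladder, lung minus bladder and lung minus intestine, and the type IV differences from 1.113 to 1.722, from 2.288 to 5.382 and from 0.772 to 3.866. The cause was not tested.

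Deviations from the tissue mean had correlations of -0.026 to 0.058 between same-numbered libraries, and of -0.072 to 0.072 between libraries of unlike number. With 2 or 3 libraries per tissue these deviations are not independent, so the check cannot show whether the numbers mark pairs. With the replicate number as a block, 14 members were higher and 27 lower in intestine than bladder, 8 and 26 in lung than bladder, and 12 and 15 in lung than intestine, and 44 differed among the tissues. With 2 lung libraries, leaving out either assumes that the lone library varies like the other tissues. Reads limit the rarest chains, such as Col9a1, Col10a1 and Col26a1.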
